A study of Mus musculus with 70 samples.

Results

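The difference between the amyloid effect and the tau effect was measured across all genes in microglial ribosome-bound RNA of the mouse forebrain. The members were 20 libraries of 70 in the series, 5 in each of 4 groups, chosen by the titles that the labels give them. The amyloid effect was APP/PS1 minus its RiboTag control, the tau effect was rAAV1-TauP301L minus rAAV1-GFP, and the quantity of interest was the amyloid effect minus the tau effect. All mice were 9 to 10 months old and carried Cx3cr1CreERT2-IRES-eYFP/+; Rpl22HA/+, called RiboTag here, and the labels' protocols give tamoxifen for all RiboTag mice. APP/PS1 mice are a transgenic model of amyloid deposition, and their controls were RiboTag mice without the transgenes. In the other experiment RiboTag mice had received an adeno-associated virus that carries either TauP301L, a mutant tau, or GFP. The APP/PS1 line and its promoter, and the age and route of the virus injection, are not given in the sources used here. In all 4 groups 1 copy of Cx3cr1 also carries the Cre insertion, so no group has normal Cx3cr1 dosage.

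In RiboTag mice, Cre recombinase turns on a tagged form of the ribosomal protein RPL22 in cells that express Cx3cr1, and ribosomes with the tag are pulled down together with their RNA. Microglia are the resident macrophages of the brain. Next to amyloid plaques and in tau disease they take on a state known as disease-associated. In it genes of lipid handling, phagocytosis and lysosomal digestion rise, in part through signalling of the receptor TREM2 and its adaptor TYROBP. The comparison asks which parts of that response are shared by the 2 models and which differ in size.

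Reads in genes were 26.7 to 33.6 M (megareads) in APP/PS1 libraries, 28.1 to 35.7 M in their controls, 22.1 to 32.8 M in TauP301L libraries and 22.0 to 28.1 M in GFP libraries. Levels are RPKM, which divides a gene's reads by its coding length and by the depth of its library. The homeostatic microglia marker P2ry12, a purinergic receptor gene, lay between 71.1 and 101 RPKM in all 20 libraries, as the tissue label has it. Neuronal transcripts were present too, with Camk2a, a kinase gene of excitatory neurons, at 62.0 to 93.8 RPKM. The summed level of 30 homeostatic genes was 2390 to 2860 RPKM in APP/PS1, 2330 to 2840 in its control, 1490 to 1710 in TauP301L and 1290 to 1820 in GFP libraries. Levels thus differed between the control groups of the experiments, and each effect was taken against its own controls. One model is a transgenic line and the other a virus injection, so the kind of model and the protein it expresses cannot be told apart. All 20 libraries had Xist at 0.182 RPKM or less and the Y-linked Ddx3y at 6.2 or more, so the groups did not differ in sex. In the summed level of disease-associated genes GFP replicate 5 stood above the other GFP libraries (1970 against 1140 to 1580 RPKM), and APP/PS1 replicate 4 below the other APP/PS1 libraries (2000 against 2520 to 2860). Fewer cells of a type and less RNA per cell cannot be told apart in such values.

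Across 13810 genes tested, 117 differed in their response to the 2 models (0.847%), 47 with a higher amyloid effect (0.34%) and 70 with a lower one (0.507%). Effects are differences of log2(RPKM + 1) ± the standard error of limma's model, where the added 1 makes changes of low genes look smaller, and a gene was called at a Benjamini-Hochberg adjusted p under 0.05. The split depended on scaling: with median-of-ratios scaling 205 were higher and 47 lower, and 93 of the 117 were called again. The called differences were small, with a median size of 0.37, and 3 of them reached 1 on the log2 scale. In 102 of the 117 genes the 2 effects had opposite signs, 38 among the higher and 64 among the lower. Selection of genes by the difference favours opposite signs, so this count does not show opposed responses. Of the 117 genes, 19 were called in the amyloid effect alone, 77 in the tau effect alone, 5 in both and 16 in neither. In 35 of the 117, 13 higher and 22 lower, the call survived the removal of any 1 of the 20 libraries. Leaving out 1 library gave 38 calls without APP/PS1 replicate 1 and 178 without TauP301L replicate 4. The count was 113 without GFP replicate 5 and 56 without APP/PS1 replicate 4.

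**Figure D1:**
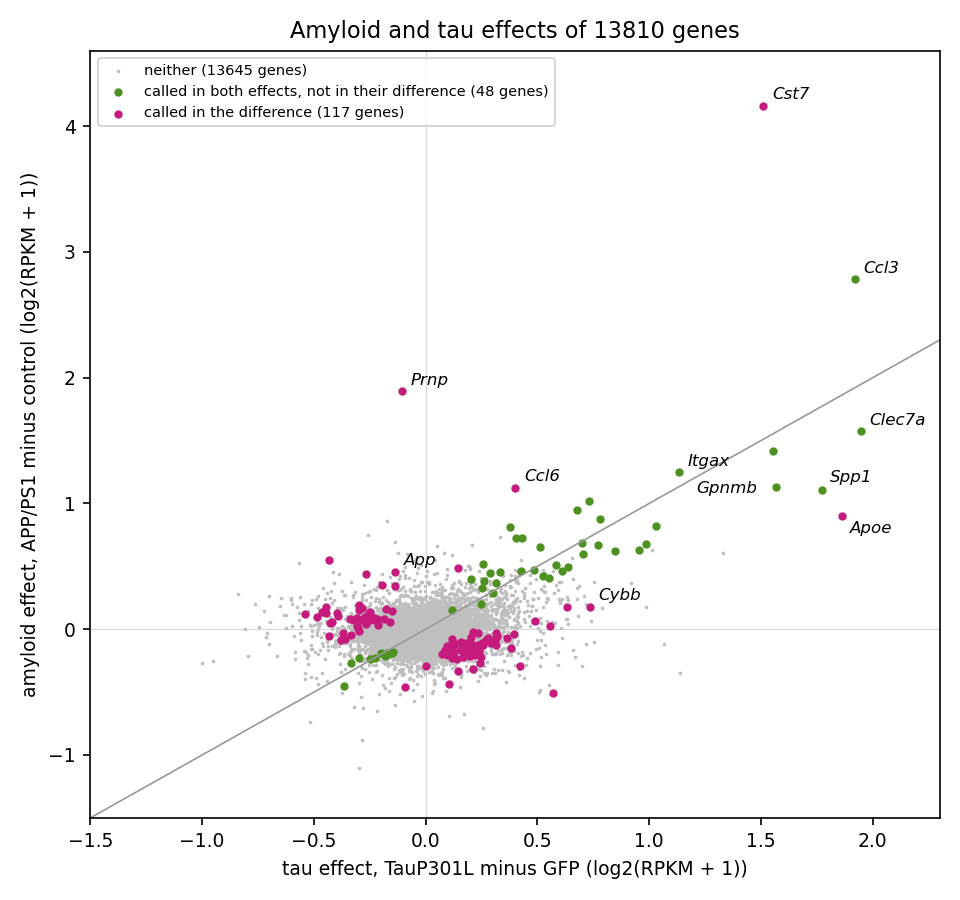
Amyloid effect (y axis) against tau effect (x axis) of 13810 genes, both in log2(RPKM + 1), with the line of equal effects. Cst7 and Prnp lie far above the line and Apoe below it, with green points for genes called in both effects but not in their difference and magenta points for the 117 called in the difference.

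Far more was shared than opposed among genes that both models moved. The amyloid effect held 179 called genes (1.3%), 68 higher and 111 lower, and the tau effect 818 (5.92%), 356 higher and 462 lower. Which effect held more calls depended on the fit: with each experiment fitted alone there were 189 amyloid and 161 tau calls, with array weights 548 and 467, and in RPKM without a logarithm 574 and 475. The calls had 53 genes in common, 29.6% of the amyloid and 6.48% of the tau calls. Of these, 40 were higher in both models, 11 were lower in both and 2, Pde10a and Slk, went opposite ways. The difference was called for 5 of the 53: Cst7, Ccl6, Apoe, Pde10a and Slk. The 2 comparisons share no libraries, and over all tested genes their effects correlated at r = 0.24, given as a description across genes that are not independent.

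Disease-associated microglia genes rose in both models. Of 46 listed genes 37 were tested. In the amyloid effect 23 were higher and 0 lower (0.492% of all genes were higher), with a median of 0.62 against -0.03 over all genes tested. In the tau effect 29 were higher (2.58% of all genes) and 1 was lower, with a median of 0.63 against -0.01. The lower one was Bhlhe40, a transcription factor gene, at -0.34 ± 0.05. In 22 genes the effect was called higher in both models. The difference between the effects had a median of -0.09, against -0.03 over all genes. It had an unadjusted limma p under 0.05 in 16 of the 37 genes, where 15.2% of all genes had one. The difference was called higher for 2 genes (0.34% of all genes) and lower for 3 (0.507% of all genes). The 2 were Cst7 and Ccl6, and the 3 were Apoe, Cybb and Anxa5. The higher count became 1 without APP/PS1 replicate 1 or 5, and the lower count 1 without APP/PS1 control replicate 3 or TauP301L replicate 3.

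**Figure D2:**
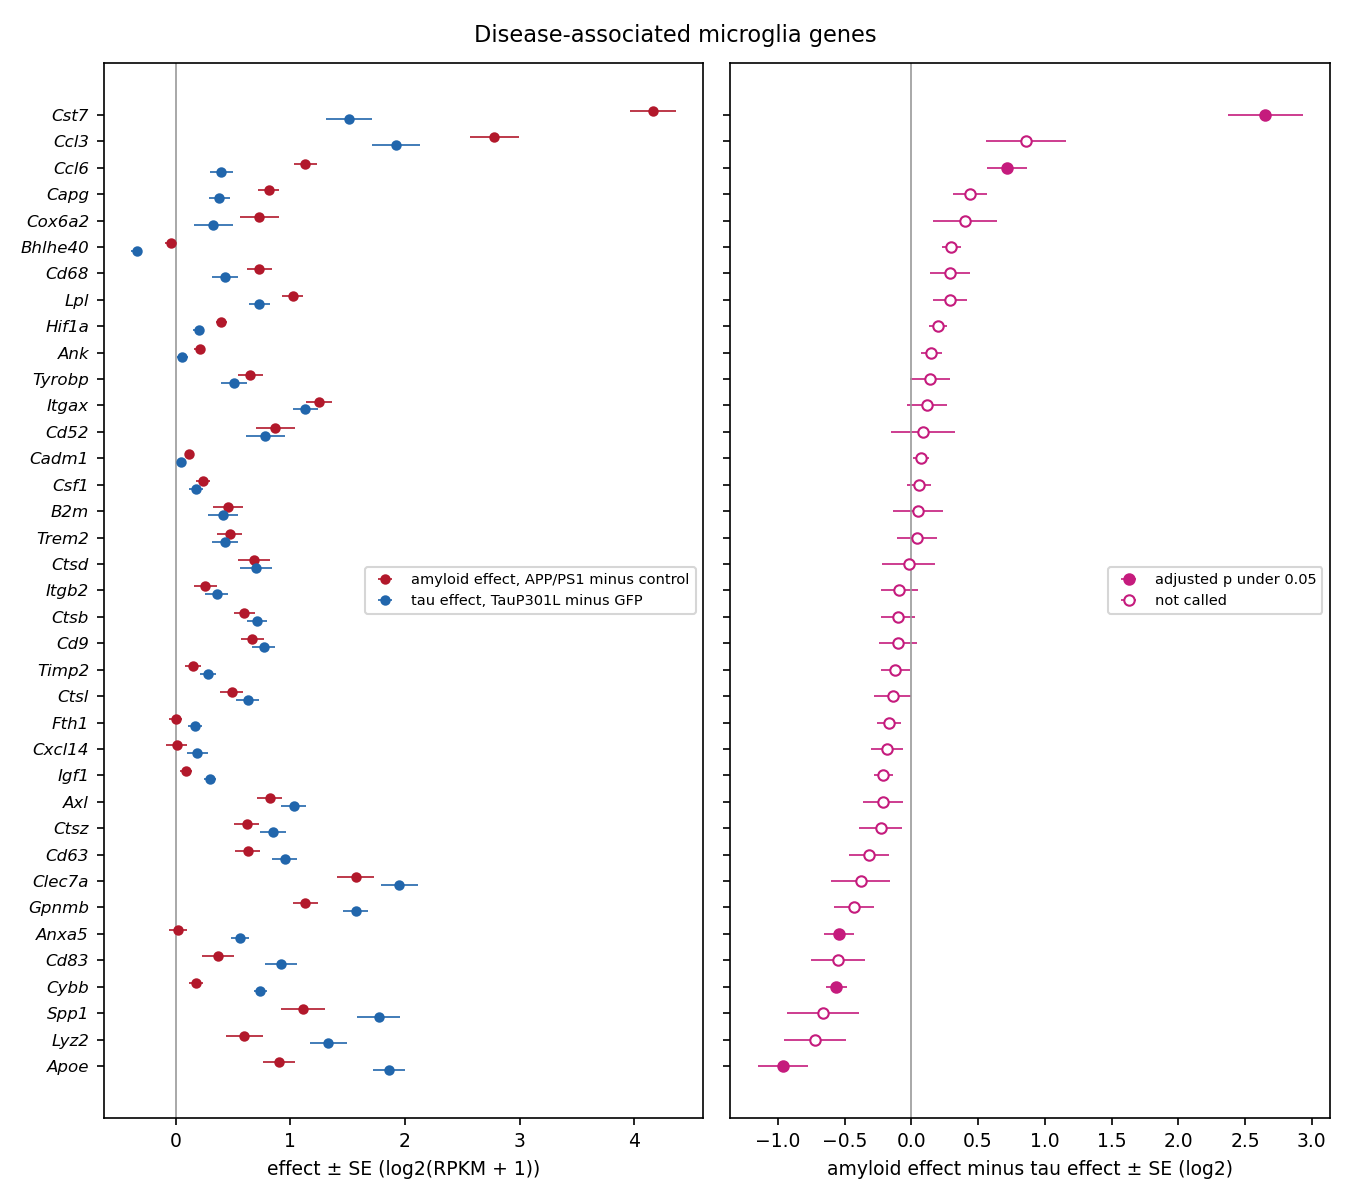
Effects ± SE in log2(RPKM + 1) of 37 disease-associated microglia genes, sorted by the difference; left, amyloid and tau effects, and right, amyloid effect minus tau effect, filled at an adjusted p under 0.05. From Cst7 at 2.65 down to Apoe at -0.96, 5 genes are filled.

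Several hallmark genes rose by amounts whose difference did not pass the test. Clec7a (ENSMUSG00000079293, chromosome 6, 129461591 to 129472777, mm10) encodes the beta-glucan receptor dectin-1. It had 6.49, 5.67, 5.42, 2.98 and 5.66 RPKM in APP/PS1 libraries, against 1.28, 1.33, 1.23, 0.698 and 0.805 in their controls. It had 5.80, 6.49, 7.60, 5.54 and 5.92 RPKM in TauP301L libraries, against 0.589, 0.571, 1.08, 1.61 and 0.702 in GFP libraries. Neither pair of groups overlapped, and the difference of the effects was -0.38 (95% interval -0.84 to 0.09, adjusted p = 0.447). A second gene model of the same name overlaps this locus, so reads could be split between them.

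Itgax, the integrin chain CD11c, had 2.46, 3.03, 1.76, 1.57 and 2.52 RPKM in APP/PS1 and 0.320, 0.401, 0.50, 0.285 and 0.286 in control libraries. In the tau experiment it had 1.45, 2.09, 1.98, 1.29 and 1.69 RPKM in TauP301L and 0.156, 0.115, 0.202, 0.357 and 0.306 in GFP libraries. Each model thus lifted it clear of its controls, with a difference of 0.12 (interval -0.21 to 0.44, adjusted p = 0.772). Genes were tested only at a mean of at least 1 RPKM, and all control and GFP libraries had Itgax at 0.50 or less. Without the APP/PS1 or without the TauP301L libraries its mean would not have passed. The entry of Itgax into the test thus rested on the groups where it is high. Tyrobp, the signalling adaptor of TREM2, rose by 0.65 ± 0.11 with amyloid and 0.51 ± 0.11 with tau, a difference of 0.14 (interval -0.18 to 0.46, adjusted p = 0.704). Trem2 itself had 0.47 ± 0.11 and 0.43 ± 0.11, and its difference was 0.04 (interval -0.27 to 0.35, adjusted p = 0.931). These small rises of Trem2 were at the edge of the test: the amyloid call (adjusted p = 0.0347) was lost without any 1 of APP/PS1 replicates 1, 2 and 5 and control replicates 1, 4 and 7 (adjusted p = 0.0651 to 0.12). The tau call (adjusted p = 0.0221) was lost without TauP301L replicate 3 (0.42, adjusted p = 0.0537), GFP replicate 2 (0.37, adjusted p = 0.0605) or GFP replicate 3 (0.40, adjusted p = 0.0503).

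Lpl, lipoprotein lipase, rose by 1.02 with amyloid and 0.73 with tau (difference 0.29, interval 0.01 to 0.57, adjusted p = 0.306). Axl, a receptor tyrosine kinase that takes part in clearing dying cells, rose by 0.82 and 1.03 (difference -0.21, interval -0.52 to 0.11, adjusted p = 0.554). Cd9, a tetraspanin, rose by 0.67 and 0.77 (difference -0.10, interval -0.39 to 0.19, adjusted p = 0.79). Gpnmb, a transmembrane glycoprotein of lysosomal stress, and Spp1, the secreted phosphoprotein osteopontin, leaned towards tau without passing the test. For Gpnmb the effects were 1.13 and 1.57 (difference -0.43, interval -0.76 to -0.11, adjusted p = 0.179), and for Spp1 they were 1.11 and 1.77 (difference -0.66, interval -1.23 to -0.09, adjusted p = 0.249). Without the TauP301L libraries, where it is highest, Gpnmb would not have passed the filter of a mean of 1 RPKM. The chemokine gene Ccl3 leaned the other way, with 2.78 and 1.92 (difference 0.86, interval 0.24 to 1.49, adjusted p = 0.168). Cd52, a surface glycoprotein gene of leukocytes, rose by 0.87 and 0.78 (difference 0.09, interval -0.40 to 0.59, adjusted p = 0.893). The growth factor gene Igf1 rose with tau (0.30) and had 0.09 with amyloid (difference -0.21, interval -0.36 to -0.07, adjusted p = 0.143), and Csf1, a ligand of the receptor that keeps microglia alive, had 0.24 and 0.18, neither called. A missed threshold does not show equal responses, and these intervals allow sizeable differences.

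Cst7 showed the largest called difference on the log2 scale. Cst7 (ENSMUSG00000068129, chromosome 2, 150570415 to 150578944) encodes cystatin F, an inhibitor of lysosomal cysteine proteases. It had 60.7, 52.8, 36.4, 26.0 and 61.9 RPKM in APP/PS1 libraries, against 1.13, 1.93, 1.69, 1.64 and 1.58 in their controls. It had 3.92, 6.39, 6.36, 4.48 and 5.70 RPKM in TauP301L libraries, against 1.16, 0.677, 1.40, 1.89 and 1.08 in GFP libraries. Both models raised it above every control library, and the lowest APP/PS1 library still exceeded the highest TauP301L library. The amyloid effect was 4.16 ± 0.20 and the tau effect 1.51 ± 0.20. Their difference was 2.65 ± 0.28 (interval 2.07 to 3.23, limma adjusted p = 5.83e-05), and 2.54 to 2.85 without each library in turn.

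Ccl6 (ENSMUSG00000018927, chromosome 11, 83587882 to 83593087), a chemokine gene of myeloid cells, followed with a smaller difference. It had 10.8, 9.47, 8.86, 7.42 and 10.4 RPKM in APP/PS1 libraries, against 3.81, 3.66, 4.34, 3.80 and 3.09 in their controls. It had 3.58, 3.66, 3.95, 3.74 and 3.73 RPKM in TauP301L libraries, against 2.91, 1.75, 2.25, 3.14 and 3.05 in GFP libraries. Amyloid moved it well clear of its controls (1.13 ± 0.10), and tau lifted it just above GFP (0.40 ± 0.10). The tau call was lost without TauP301L replicate 3 (0.39, adjusted p = 0.0677), TauP301L replicate 5 (0.40, adjusted p = 0.0503), GFP replicate 2 (0.31, adjusted p = 0.0618) or GFP replicate 3 (0.37, adjusted p = 0.063). The difference was 0.72 ± 0.15 (adjusted p = 0.0255), and 0.68 without APP/PS1 replicate 1 (adjusted p = 0.0566) and 0.69 without replicate 5 (adjusted p = 0.0517). It also missed the threshold with a pseudocount of 0.1 RPKM (adjusted p = 0.051), with no filter on low values (adjusted p = 0.061) and with other cells' transcripts as a covariate (adjusted p = 0.0691).

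**Figure D3:**
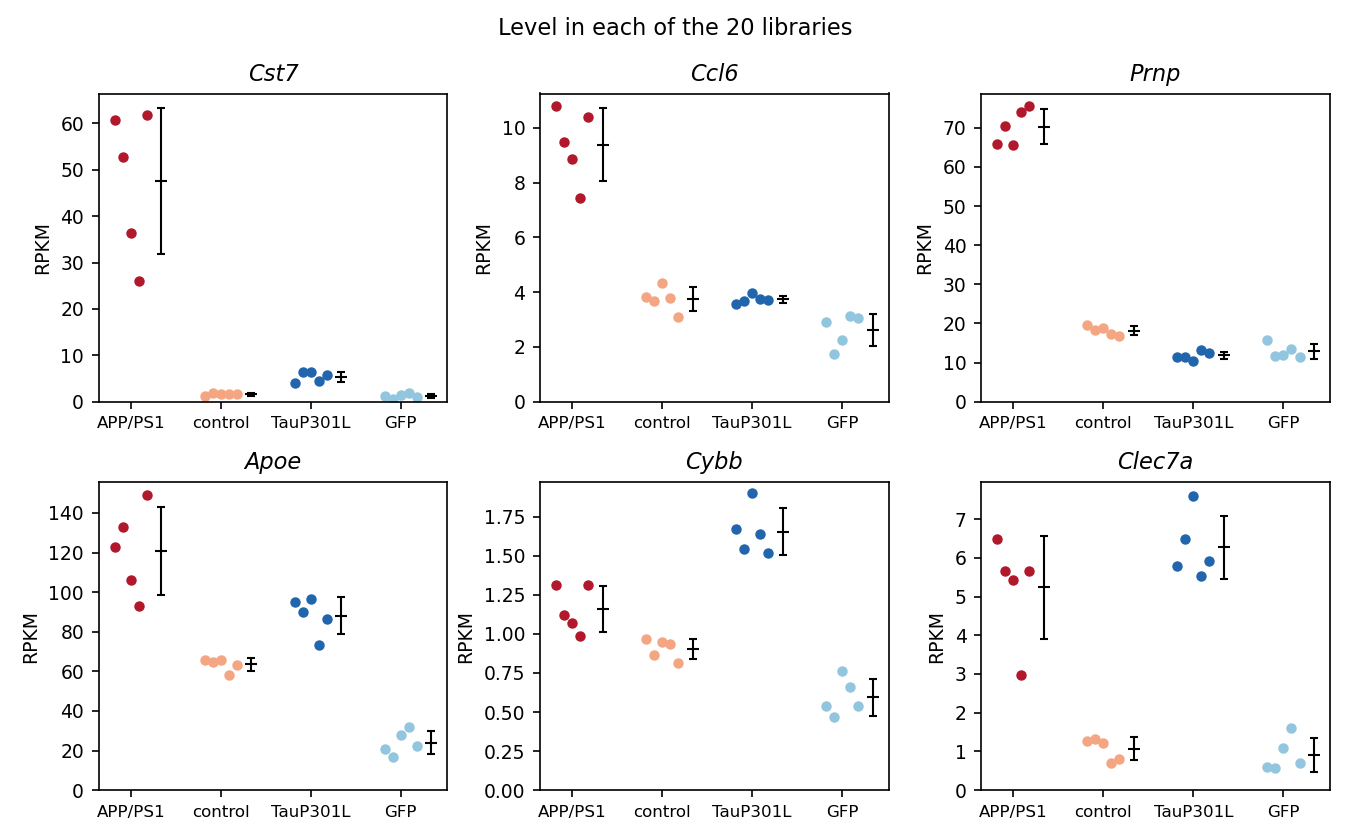
RPKM of 6 genes in each of the 20 libraries, with the group mean ± SD (n = 5) beside the points. Cst7, Ccl6 and Prnp are highest in APP/PS1 libraries, Cybb in TauP301L libraries, and Apoe and Clec7a are high in both models.

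Apoe gave the opposite sign, and its reading depended on the scale. Apoe (ENSMUSG00000002985, chromosome 7, 19696109 to 19699166) encodes apolipoprotein E, the main lipid carrier of the brain and the strongest common genetic risk factor for late-onset Alzheimer disease. It had 123, 133, 106, 93.0 and 149 RPKM in APP/PS1 libraries, against 65.8, 64.9, 65.6, 58.2 and 63.1 in their controls. It had 95.1, 89.8, 96.6, 73.2 and 86.2 RPKM in TauP301L libraries, against 20.7, 16.9, 28.1, 31.7 and 22.5 in GFP libraries. No library of a model overlapped its controls, but the controls of the 2 experiments also differed, at means of 63.5 and 24.0 RPKM. On the log2 scale the effects were 0.90 ± 0.14 with amyloid and 1.86 ± 0.14 with tau, a difference of -0.96 ± 0.19 (interval -1.37 to -0.56, adjusted p = 0.0247). In RPKM without a logarithm, an alternative chosen after seeing the data, Apoe rose by 57.3 with amyloid and 64.2 with tau, a difference of -6.94 (adjusted p = 0.799). The call was also lost without APP/PS1 control replicate 3 (-0.95, adjusted p = 0.0506) or TauP301L replicate 3 (-0.93, adjusted p = 0.0561), with no filter (adjusted p = 0.061) and with the covariate (adjusted p = 0.0557).

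Cybb, St8sia6, Anxa5 and Abca1 also had a lower amyloid than tau effect, and in each of them the tau effect was called and the amyloid effect was not. Cybb (ENSMUSG00000015340, chromosome X, 9435252 to 9487771), the catalytic subunit of the phagocyte NADPH oxidase, had 1.31, 1.12, 1.07, 0.984 and 1.31 RPKM in APP/PS1 and 0.964, 0.862, 0.950, 0.932 and 0.813 in control libraries. In the tau experiment it had 1.67, 1.54, 1.90, 1.64 and 1.52 RPKM in TauP301L and 0.540, 0.467, 0.765, 0.660 and 0.540 in GFP libraries. The APP/PS1 libraries lay just above their controls without passing the test (0.18 ± 0.06, adjusted p = 0.154), and TauP301L libraries lay above all GFP libraries (0.74 ± 0.06, adjusted p = 3.97e-07). The difference of -0.56 ± 0.08 (adjusted p = 0.00373) held without each library in turn (-0.60 to -0.53) and in RPKM without a logarithm (adjusted p = 0.00171). Cybb was near the filter of a mean of 1 RPKM, with every control and GFP library below that level. Without the TauP301L libraries its mean would not have passed, so its entry into the test rested on the group where it is high.

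St8sia6, a sialyltransferase gene, had 1.47, 1.46, 1.35, 1.17 and 1.42 RPKM in APP/PS1 and 1.16, 1.10, 1.02, 1.13 and 1.10 in control libraries. It had 2.68, 3.05, 2.98, 2.44 and 2.70 RPKM in TauP301L and 1.58, 1.25, 1.28, 1.61 and 1.46 in GFP libraries. Its tau effect of 0.63 ± 0.06 exceeded an amyloid effect of 0.17 ± 0.06 that did not pass the test, by -0.46 ± 0.08 (adjusted p = 0.0129), with no library deciding the call. Anxa5, which binds phosphatidylserine on membranes, had effects of 0.02 ± 0.08 with amyloid and 0.56 ± 0.08 with tau, a difference of -0.54 ± 0.11 (adjusted p = 0.0276). Without APP/PS1 replicate 1 or 4, control replicate 2 or 3 or TauP301L replicate 3 its adjusted p was 0.0512 to 0.062. Abca1, which exports cholesterol onto apolipoproteins, had -0.07 ± 0.06 and 0.31 ± 0.06, a difference of -0.39 ± 0.08 (adjusted p = 0.0301). Its call was lost without any 1 of 8 libraries (APP/PS1 1, 4 and 5, control 3 and 4, TauP301L 3, and GFP 2 and 3, adjusted p = 0.0508 to 0.0634).

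The stretches upstream of Cst7, Ccl6 and Apoe are shown because these were the disease-associated genes called in both effects and in their difference. They are the 250 bases before the annotated start (for Apoe, the most upstream of 3 starts), from RefSeq on GRCm38.p6. Capitals mark AGGAAGT or its reverse complement ACTTCCT, a form of the ETS core bound by PU.1, the transcription factor of the myeloid lineage. The motif was chosen with the values of these genes known.
Cst7, chr2:150570165-150570414, plus strand: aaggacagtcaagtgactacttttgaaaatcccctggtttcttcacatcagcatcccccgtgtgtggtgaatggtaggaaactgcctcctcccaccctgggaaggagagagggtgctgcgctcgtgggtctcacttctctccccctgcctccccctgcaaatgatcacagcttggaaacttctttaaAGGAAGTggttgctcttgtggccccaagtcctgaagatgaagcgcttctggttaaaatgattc
Ccl6, chr11:83593088-83593337, minus strand: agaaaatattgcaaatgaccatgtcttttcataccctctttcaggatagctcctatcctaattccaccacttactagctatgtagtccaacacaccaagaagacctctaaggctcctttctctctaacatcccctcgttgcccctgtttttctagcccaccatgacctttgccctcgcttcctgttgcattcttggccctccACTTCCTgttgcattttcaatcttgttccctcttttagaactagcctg
Apoe, chr7:19699189-19699438, minus strand: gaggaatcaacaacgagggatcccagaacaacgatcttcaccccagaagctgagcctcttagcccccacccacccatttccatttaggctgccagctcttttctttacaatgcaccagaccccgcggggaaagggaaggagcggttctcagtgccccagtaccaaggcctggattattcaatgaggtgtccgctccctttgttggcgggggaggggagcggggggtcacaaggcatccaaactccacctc
Cst7 and Ccl6 held 1 match each, beginning 63 and 48 bases before the start, and the Apoe stretch held 0. Over all 32851 starts in the table, 7.69% had a match on either strand. Of 31 disease-associated genes found there 4 had a match at any start (12.9%), against 8.8% of all 27025 genes. A match is a description of letters and says nothing about binding.

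Prnp and App, genes of neurons and many other cells, were the clearest difference of another kind. Prnp (ENSMUSG00000079037, chromosome 2, 131909928 to 131938429), the prion protein gene, had 65.8, 70.5, 65.6, 74.0 and 75.5 RPKM in APP/PS1 libraries, against 19.7, 18.3, 18.8, 17.3 and 16.7 in their controls. It had 11.4, 11.5, 10.5, 13.1 and 12.5 RPKM in TauP301L libraries, against 15.8, 11.7, 11.9, 13.4 and 11.4 in GFP libraries. The APP/PS1 libraries lay far above their controls, and the tau groups overlapped. The effects were 1.90 ± 0.07 and -0.11 ± 0.07, and their difference was 2.00 ± 0.11 (adjusted p = 7.03e-10), the smallest p of all named genes. App (ENSMUSG00000022892, chromosome 16, 84954440 to 85173707), the amyloid precursor gene, had 44.1, 45.1, 40.7, 48.2 and 50.2 RPKM in APP/PS1 and 36.5, 32.1, 31.0, 32.5 and 32.7 in control libraries. In the tau experiment it had 18.1, 19.8, 18.6, 20.2 and 21.1 RPKM in TauP301L and 22.1, 20.7, 22.1, 22.5 and 20.5 in GFP libraries. Amyloid libraries did not overlap their controls while tau libraries did, and the difference was 0.59 ± 0.08 (adjusted p = 0.000892).

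Both differences held without each library in turn. They stood in a list that joined App, Aplp1, Aplp2, secretase genes, Ide, Mme, Mapt and Prnp, with 13 genes tested. Prnp and App were the 2 called higher in it (0.34% of all genes). Prnp itself encodes neither the amyloid precursor, a secretase nor tau. Mapt, the mouse tau gene, had a difference of 0.08 (interval -0.05 to 0.21, adjusted p = 0.603). Some APP/PS1 lines express their transgenes from the mouse prion promoter, and reads of a transgene and of the mouse gene cannot be told apart in these gene-level values. Prnp also overlaps a predicted gene in the annotation.

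Among the neuronal transcripts in the pulldowns, called cortical and called striatal genes differed between the models in opposite directions. Of 18 genes of cortical and hippocampal glutamatergic neurons, 7 fell with tau (3.35% of all genes were lower) and 0 changed with amyloid. Their difference had a median of 0.19, against -0.03 over all genes, with 2 genes higher (0.34% of all genes), Slc17a7 and Fezf2. Genes of striatal projection neurons went the other way: of 17 tested, 4 had a lower amyloid than tau effect (0.507% of all genes), with a median difference of -0.29. In the amyloid effect 2 of the 17 were lower, Penk and Pde10a (0.804% of all genes were lower). In the tau effect 2 were higher, Pde10a and Bcl11b (2.58% of all genes were higher). The cortical tau count was 4 without TauP301L replicate 1 or GFP replicate 3, and its difference count 4 without TauP301L replicate 4. The striatal difference count was 2 without any 1 of 14 libraries, and the striatal amyloid count 4 without GFP replicate 1.

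**Figure D4:**
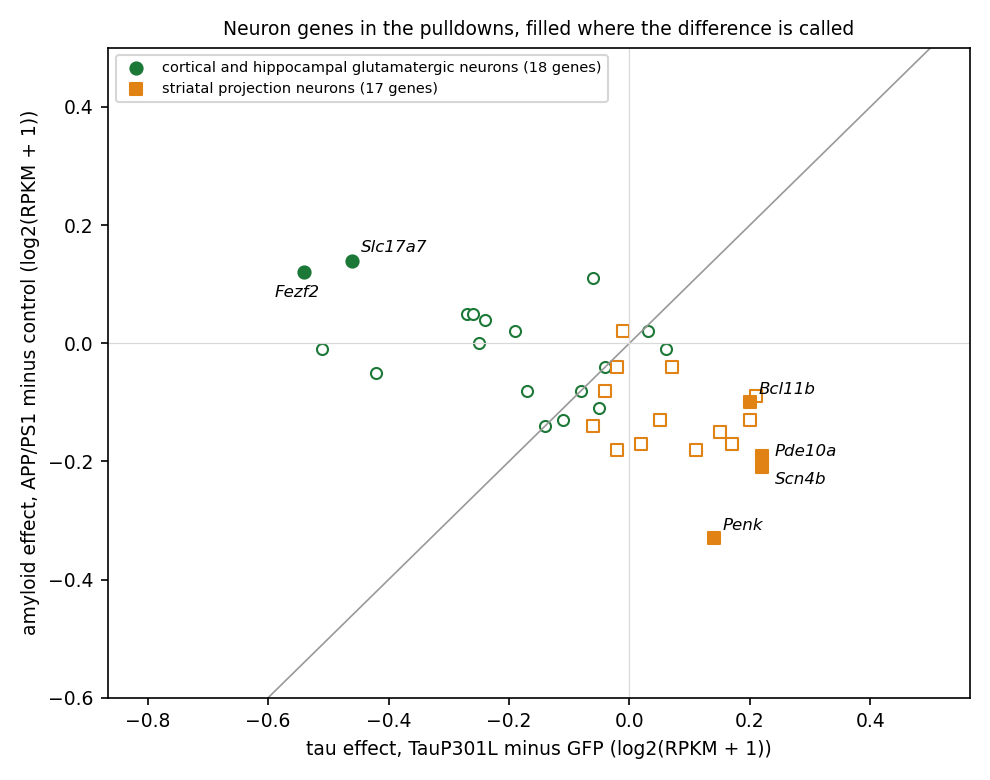
Amyloid effect against tau effect in log2(RPKM + 1) of 18 cortical and hippocampal (circles) and 17 striatal neuron genes (squares), filled where the difference is called, with the line of equal effects. Called cortical genes lie to the upper left (Fezf2 and Slc17a7) and called striatal genes to the lower right (Penk, Pde10a, Scn4b and Bcl11b).

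Slc17a7, the vesicular glutamate transporter VGLUT1 of cortical neurons, had 21.6, 23.7, 20.4, 24.3 and 23.7 RPKM in APP/PS1 and 20.9, 18.9, 22.1, 20.2 and 20.8 in control libraries. It had 6.36, 7.37, 5.52, 7.07 and 6.51 RPKM in TauP301L and 8.30, 8.96, 10.1, 9.82 and 9.83 in GFP libraries. The amyloid groups overlapped and the tau groups did not, with effects of 0.14 ± 0.07 and -0.46 ± 0.07 and a difference of 0.60 ± 0.09 (adjusted p = 0.00527). Fezf2, a transcription factor of deep-layer cortical neurons, had 5.31, 5.40, 4.91, 5.67 and 5.50 RPKM in APP/PS1 and 4.84, 5.03, 4.52, 4.81 and 4.93 in control libraries. In the tau experiment it had 2.61, 2.55, 3.58, 3.76 and 3.46 RPKM in TauP301L and 5.90, 4.57, 4.88, 5.37 and 4.66 in GFP libraries. Every TauP301L library was below every GFP library, and the difference was 0.67 ± 0.11 (adjusted p = 0.0076).

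Similar differences stood for Lingo1, a neuronal membrane protein (0.62 ± 0.11, adjusted p = 0.016), and Camk2a (0.33 ± 0.06, adjusted p = 0.016). Their tau effects were -0.45 and -0.37, while the amyloid effects of 0.17 and -0.03 did not pass the test. The calls of Slc17a7, Fezf2, Lingo1 and Camk2a held without each library in turn. Syp, the synaptic vesicle protein synaptophysin, had a difference of 0.39 ± 0.08 (adjusted p = 0.0303), lost without any 1 of 9 libraries (APP/PS1 1, 4 and 5, control 2, 3 and 4, TauP301L 1 and 3, and GFP 3, adjusted p up to 0.0634). Neurod6, a cortical transcription factor, fell with tau (-0.51 ± 0.10), and its difference of 0.49 ± 0.14 was not called (adjusted p = 0.0961).

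Penk, which encodes the opioid precursor proenkephalin of striatal neurons, had 15.7, 16.1, 17.2, 15.8 and 15.9 RPKM in APP/PS1 and 20.1, 20.8, 21.9, 22.3 and 18.1 in control libraries. It had 19.6, 21.3, 17.9, 20.6 and 22.4 RPKM in TauP301L and 17.6, 16.8, 20.8, 17.8 and 18.8 in GFP libraries. Amyloid libraries were all below their controls while the tau groups overlapped, and the difference was -0.48 ± 0.09 (adjusted p = 0.016). Pde10a, a phosphodiesterase enriched in the striatum, had 16.5, 17.0, 16.9, 17.4 and 15.4 RPKM in APP/PS1 and 19.6, 18.7, 19.9, 19.6 and 18.2 in control libraries. It had 15.4, 14.7, 14.4, 14.5 and 14.3 RPKM in TauP301L and 12.2, 13.3, 12.4, 12.0 and 12.4 in GFP libraries. Neither pair of groups overlapped and the signs were opposite, -0.19 ± 0.04 with amyloid and 0.22 ± 0.04 with tau, a difference of -0.41 ± 0.05 (adjusted p = 0.000715). The calls of Penk and Pde10a held without each library, those of Bcl11b, a transcription factor gene (-0.30 ± 0.07, adjusted p = 0.0411), and Scn4b, a sodium channel subunit gene (-0.43 ± 0.10, adjusted p = 0.0447), were lost without 14 and 17 of the 20 (adjusted p up to 0.0823 and 0.0878). Scn4b was named after its value was seen, to complete the 4.

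Among 20 general neuron markers 9 fell with tau (5 without TauP301L replicate 3) and 0 changed with amyloid, where 3.35% of all genes were lower with tau. The difference was called higher for 3 of the markers (0.34% of all genes), Slc17a7, Camk2a and Syp, with a median of 0.18. That count was 7 with median-of-ratios scaling, 8 with voom and 1 with other cells' transcripts as a covariate. General neuron markers, Slc17a7, Camk2a and Syp among them, are part of that covariate, so a fall in their calls is partly built in. With scaling the cortical count was 4 and the striatal one 2, and with voom they were 4 and 6. The summed level of the 20 general markers was 550 to 577 RPKM in APP/PS1 and 541 to 599 in control libraries, overlapping. It was 472 to 562 RPKM in TauP301L and 583 to 662 in GFP libraries, not overlapping. The striatal list summed to 149 to 157 RPKM in APP/PS1, 168 to 178 in control, 122 to 134 in TauP301L and 116 to 122 in GFP libraries. No gene of these lists was at 0 in all libraries. With the mean of neuron, astrocyte and oligodendrocyte markers as a covariate, 23 differences were called, 9 higher and 14 lower, all 23 among the 117. Cst7 (2.63), Cybb (-0.56), Prnp (1.89), App (0.52), Slc17a7 (0.55) and Pde10a (-0.40) were called in that fit. Camk2a (0.31, adjusted p = 0.0557), Syp (0.32, adjusted p = 0.0678), Lingo1 (0.57, adjusted p = 0.0557), Anxa5 (-0.55, adjusted p = 0.0646), Abca1 (-0.35, adjusted p = 0.0746), Bcl11b (-0.25, adjusted p = 0.0912) and Scn4b (-0.42, adjusted p = 0.0914) were not, nor were Apoe and Ccl6. Of the 32 called genes that the naming rule covers or that were added to it, 13 were called.

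Few differences were called among homeostatic microglia genes, which does not show equal responses. In the amyloid effect 1 of 30 was higher (0.492% of all genes) and 0 were lower. In the tau effect 3 were higher (2.58% of all genes) and 1 was lower (3.35% of all genes). The higher tau count was 1 to 7 with 1 library left out. In the difference 7 had an unadjusted p under 0.05 (15.2% of all genes). Of 30 tested, 1 had a higher amyloid than tau effect (0.34% of all genes) and 0 a lower one, with a median difference of -0.03. The 1 was Serpine2, a serine protease inhibitor gene that rose with amyloid (0.49 ± 0.06), with a difference of 0.34 ± 0.08 (adjusted p = 0.043) that was lost without any 1 of 16 libraries (adjusted p up to 0.0848). P2ry12 had a difference of 0.10 (interval -0.10 to 0.31), Tmem119, a microglial membrane protein gene, one of -0.14 (interval -0.49 to 0.21), and Cx3cr1, the fractalkine receptor gene, one of -0.25 (interval -0.50 to -0.01), none of them called (adjusted p = 0.66, 0.743 and 0.31).

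In the other microglial lists limma called no difference, except Apoe and Abca1 (both lower) among 24 lipid handling genes. Of all genes 0.847% were called, 0.507% lower. Of 35 tested lysosome and phagocytosis genes, 11 rose with amyloid (0.492% of all genes) and 19 with tau (2.58% of all genes), 10 of them with both. The median difference was -0.10, with 0 called and 5 at an unadjusted p under 0.05 (15.2% of all genes). The amyloid count was 7 without APP/PS1 replicate 1 or 5 and 6 without control replicate 4. Psap, the precursor of sphingolipid activator proteins, had 0.07 with amyloid and rose by 0.39 with tau (difference -0.32, interval -0.52 to -0.12, adjusted p = 0.102). Gusb, a lysosomal glucuronidase gene, leaned the other way with 0.52 and 0.26 (difference 0.26, interval 0.07 to 0.45, adjusted p = 0.165). Ctsd, the protease cathepsin D, averaged 482 RPKM in APP/PS1, 298 in control, 239 in TauP301L and 149.5 in GFP libraries, with a difference of -0.02 (interval -0.43 to 0.39, adjusted p = 0.982). Its amyloid call (0.68, adjusted p = 0.0184) was lost without APP/PS1 replicate 1, APP/PS1 replicate 5 or control replicate 4, with 0.63 in each case (adjusted p = 0.06 to 0.0672).

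Complement genes (13 tested) had 1 member higher with amyloid and 5 with tau, inflammatory genes (11 tested) 1 and 5 with 1 more lower with tau, interferon genes (21 tested) 1 and 3, and MHC genes (15 tested) 0 and 3, where 0.492% of all genes were higher with amyloid and 2.58% with tau. The complement gene higher with amyloid was Itgax and the inflammatory one Ccl3, both already counted in the disease-associated list. These counts rested on single libraries. Without APP/PS1 replicate 4 the amyloid counts were 2 for complement, 3 for inflammatory and 5 for interferon genes, and the interferon tau count was 5. Without GFP replicate 5 the tau counts were 8 for interferon and 5 for MHC genes, and the amyloid count was 2 each for complement, inflammatory and interferon genes. The complement tau count was 2 without TauP301L replicate 5, GFP replicate 1 or GFP replicate 2, and 3 without TauP301L replicate 1, 2 or 3. The complement amyloid count was 2 also without control replicate 2, TauP301L replicate 4 or GFP replicate 2, and the inflammatory one without control replicate 3, TauP301L replicate 4 or GFP replicate 2. The 1 lower inflammatory gene with tau was lost without any 1 of 14 libraries. The MHC amyloid count was up to 2 without APP/PS1 replicate 4, GFP replicate 2 or GFP replicate 5, and 0 without any other library. The summed MHC level was 1120 to 1290 RPKM in TauP301L libraries, against 1400 in GFP replicate 5 and 657 to 1080 in the other GFP libraries. Their median differences were -0.09, -0.09, 0.03 and -0.03. The numbers of unadjusted p under 0.05 in the difference were 0, 5, 1 and 0 (15.2% of all genes). C3ar1, a complement receptor gene, had effects of 0.38 ± 0.09 and 0.60 ± 0.09 (difference -0.22, adjusted p = 0.464), and H2-K1, an MHC class I gene, 0.38 ± 0.17 and 0.75 ± 0.17 (difference -0.38, adjusted p = 0.479). The chemokine gene Cxcl16 had 0.24 and 0.68 (difference -0.44, adjusted p = 0.179), and the interferon-induced gene Ifi204 0.29 and 0.58 (difference -0.29, adjusted p = 0.455). Without the TauP301L libraries, where it is highest, Ifi204 would not have passed the filter of a mean of 1 RPKM. A gene called in one effect and not in the other is not thereby shown to differ between them. Cholesterol synthesis (21 genes), cytosolic ribosomal proteins (63), oxidative phosphorylation (57), glycolysis (19) and immediate early and heat shock genes (25) held 0 called differences, with medians of -0.03, -0.08, -0.08, 0.04 and 0.02. Of these, 1, 6, 10, 5 and 5 had an unadjusted p under 0.05 (15.2% of all genes). As 0.847% of all genes were called, 0 calls in lists of this size lie near that share.

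Markers of glial, vascular and blood cells were likewise called in no difference, where 0.847% of all genes were called. In lists this short 0 calls lie near that share and say little about these cells. Medians were -0.02 for 14 astrocyte, -0.04 for 13 oligodendrocyte, 0.12 for 11 endothelial and mural and -0.20 for 9 perivascular macrophage genes. An unadjusted p under 0.05 was found for 4, 1, 1 and 3 of them (15.2% of all genes). Monocyte and neutrophil markers were hardly detected, with 2 of 18 tested. Oligodendrocyte precursor (5 tested), ependymal and choroid plexus (4), lymphocyte (3), erythroid (3) and cell cycle genes (5) also held 0 calls, and their medians were 0.10, 0.12, -0.22, -0.08 and 0.05. Of 18 tested orthologs of Alzheimer risk genes, Apoe was the 1 called, with a lower difference (0.507% of all genes). It is the same call as in the disease-associated and lipid lists. The count was 0 without APP/PS1 control replicate 3 or TauP301L replicate 3.

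A few named genes outside these lists carried calls that held without each library. Slk, a protein kinase gene, had 11.6, 11.9, 11.7, 12.0 and 11.7 RPKM in APP/PS1 and 14.3, 13.3, 14.0, 13.4 and 13.6 in control libraries, against 11.5, 11.9, 11.8, 12.4 and 11.9 RPKM in TauP301L and 10.7, 10.9, 10.9, 11.5 and 10.8 in GFP libraries. It was lower in every APP/PS1 library and higher in TauP301L by a small margin, with a difference of -0.32 ± 0.04 (adjusted p = 0.000892). Its tau call of 0.11 (adjusted p = 0.0312) was lost without any 1 of 8 libraries (TauP301L 2 to 5 and GFP 1, 2, 3 and 8, adjusted p up to 0.067). Tesc, a calcium-binding protein gene, fell by 0.43 with amyloid, and its tau effect of 0.11 was not called (difference -0.54 ± 0.10, adjusted p = 0.019). Gprin3 rose with tau by 0.38 and had -0.15 with amyloid (difference -0.53 ± 0.10, adjusted p = 0.0216). Pard6a, a cell polarity gene, had -0.32 and 0.21 (difference -0.53 ± 0.09, adjusted p = 0.0129), and Prr13 -0.07 and 0.36 (difference -0.44 ± 0.08, adjusted p = 0.016). In the tau experiment every library had Pard6a below the filter level of 1 RPKM, and without the APP/PS1 control libraries its mean would not have passed. Cdr1 averaged 818 RPKM in APP/PS1, 640 in control, 2247 in TauP301L and 2571 in GFP libraries, a difference of 0.54 ± 0.10 (adjusted p = 0.0178). The sources used here do not say whether reads were counted by strand, so Cdr1 cannot be told apart from its antisense transcript. Its amyloid call of 0.35 (adjusted p = 0.0196) was lost without APP/PS1 replicate 1 (0.29, adjusted p = 0.0598), control replicate 2 (0.33, adjusted p = 0.0583) or control replicate 4 (0.32, adjusted p = 0.0749), and that of Pard6a (adjusted p = 0.0167) without APP/PS1 replicate 1 (-0.29, adjusted p = 0.0598).

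The other genes among the 12 highest and 12 lowest called differences rested on more libraries. Pter had a difference of 0.59 ± 0.12 (adjusted p = 0.0303, lost without any 1 of 7 libraries), H2afx, a histone variant gene of the DNA damage response, one of 0.52 ± 0.11 (adjusted p = 0.0363, lost without 12), and Prrt2, a presynaptic protein gene, one of 0.49 ± 0.10 (adjusted p = 0.0303, lost without 8). All 3 fell with tau, by 0.49, 0.40 and 0.30, the last lost without 2 libraries (adjusted p up to 0.0656). Among the lower ones, Rps27l had a difference of -0.51 ± 0.11 (adjusted p = 0.0396, lost without 11) and Tm2d3 one of -0.47 ± 0.11 (adjusted p = 0.0419, lost without 16), with neither effect called on its own. The adjusted p of these 5 genes without 1 library was at most 0.0823. Mir7078, a microRNA gene within Cmip, had -1.08 ± 0.23 (adjusted p = 0.0327, lost without 9, adjusted p up to 0.0685), and its reads cannot be told apart from those of Cmip.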

How the data were processed

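Ribosome-bound RNA was pulled down through the HA tag from forebrain, and the design text gives 3 to 5 animals per condition, so each library was taken as 1 animal. The authors deposited RPKM per gene, and the submitters' processing notes name CASAVA, TopHat2, featureCounts and the mouse build mm10, with versions and strand setting not given in the sources used here. All 70 value columns matched sample titles, and 20 libraries were used. Of 43346 genes, the 13810 with a mean of at least 1 RPKM were tested.

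Values were taken as log2(RPKM + 1), and limma 3.58.1 in R 4.3.3 fitted the means of 4 groups with a trended variance. Contrasts were adjusted by Benjamini-Hochberg over all 13810 genes and called at an adjusted p under 0.05. Simulated data with the same groups recovered 71.6% of 1.5-fold, 92.5% of 2-fold and 97% of 4-fold changes in the difference of effects, with 14 false calls among 14242 genes. Changes were placed in the APP/PS1 group only, and each gene was drawn independently. Shifts shared by many genes of a library and folds below 1.5 were not simulated, so these rates do not cover them. RPKM steps gave whole reads for 100% of values (tolerance 0.01 read), which served for depth and for limma voom as an alternative. Replicate correlations were 0.972 to 0.989, and no libraries matched within sampling noise.

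The genes named are the 12 highest and 12 lowest called differences without predicted genes, up to 3 of each of 28 lists by smallest p, a fixed set of disease and homeostatic genes, and the leading genes called in both effects. Scn4b was added after its value was seen. Some genes that the rule names are not reported here. The members, the lists and this rule were chosen with earlier results of these data known. Alternatives were another pseudocount, filter, scaling, fold limit, library weights, replicate block, voom, a carry-over covariate, each experiment fitted alone and each library left out. Promoter stretches came from RefSeq. Python 3.11.15, pandas 2.3.3, numpy 2.4.6 and matplotlib 3.10.9 were used.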

Additional observations from a re-analysis of the deposited data

Results flagged for a closer look

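Of 224 groups of 5 libraries, 11 held a library whose gap to the nearest other exceeded 0.71 of the range (4.91%), and chance flags about 1 in 20 groups. Spp1 was at 2.59 RPKM in APP/PS1 control replicate 2 (the others 0.793 to 1.22) and at 2.88 in GFP replicate 8 (the others 1.25 to 1.51). Tyrobp was at 170 RPKM in APP/PS1 replicate 4 (221 to 241), and Rps27l at 2.96 in the same library (3.84 to 4.15). Cdr1 was at 958 RPKM in APP/PS1 replicate 1 (750 to 809), and H2afx at 14.6 in that library (11.6 to 12.3). Penk was at 17.2 RPKM in APP/PS1 replicate 3 (15.7 to 16.1), and Cxcl16 at 3.05 in TauP301L replicate 3 (2.78 to 2.85). Cd9 was at 9.2 RPKM in GFP replicate 5 (5.93 to 6.55). Scn4b was at 10.8 RPKM in TauP301L replicate 1 (8.93 to 9.38) and at 10.4 in GFP replicate 1 (7.18 to 7.59).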

How the results depend on the processing

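The 117 called differences of effects became 59 with no filter on low values, 241 at a mean of at least 5 RPKM, 252 with median-of-ratios scaling, 371 with voom on recovered reads, 23 with the carry-over covariate and 3 at a difference of at least 1. The 179 amyloid calls became 99 with scaling, 548 with array weights, 277 with voom, 574 in RPKM without a logarithm and 10 at an effect of at least 1. The 818 tau calls became 507 with no filter, 467 with array weights, 475 in RPKM without a logarithm, 12 at an effect of at least 1 and 161 in a fit of only the 2 groups, which gave 189 for amyloid. Without each library in turn the counts ranged from 38 to 178 for the difference, 65 to 214 for amyloid and 424 to 966 for tau. RPKM without a logarithm was added after seeing the data. The causes of these changes were not tested.

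Replicate numbers were not taken to pair the libraries. Within an experiment, deviations from the group means correlated at -0.05 to 0.068 between same-numbered libraries of its 2 groups. Between libraries with different numbers they correlated at -0.109 to 0.08. With the replicate block the counts were 29, 24 and 508, and 19 of the 29 were among the 117; called higher were 0 general neuron markers and 3 cortical genes, and called lower was 1 striatal gene. Of 32 genes called in the difference and covered by the naming rule or added to it, 0 changed sign under any alternative run. Calls held for 30 of them with a pseudocount of 0.1, 17 with no filter, 30 with scaling, 31 with array weights, 31 with voom, 13 with the covariate, 27 without a logarithm and 9 with the block. Scaling shifted the median difference over all genes to 0.016, against -0.026 unscaled.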
